A study of Mus musculus with 6 samples.

Results

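Antioxidant defence was described here through 10 genes, taken from the count table by their symbols: *Sod1*, *Sod2*, *Cat*, *Gpx1*, *Gpx4*, *Txn1*, *Hmox1*, *Nqo1*, *Gclm* and *Nfe2l2*. All 10 were found among the 31169 genes of the table, and all 10 passed the filter on low counts that left 17707 genes to be tested. The libraries were made from poly(A) RNA of retinas of C57BL/6 mice at 2 months of age. Of the 6 libraries, 3 came from saline retina and 3 from microbead retina. By the labels, mice were given an intracameral injection of 1 µL at 1 month of age, and tissue was taken 4 weeks later. The methods of the study give a different volume. The microbead group received beads of 15 µm diameter, which obstruct aqueous outflow and raise intraocular pressure (IOP), and the saline group served as the control. Both groups therefore carried the injection itself, and the strain was the same in both. Whole retina mixes neurons, glia and vessels, so that fewer cells of a type and less RNA per cell cannot be told apart.

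Superoxide formed by mitochondria and oxidases is converted to hydrogen peroxide by superoxide dismutases. Catalase, the glutathione peroxidases and the thioredoxin-dependent peroxiredoxins then remove the peroxide, drawing on glutathione and on NADPH. NRF2, the protein of *Nfe2l2*, is a transcription factor that binds antioxidant response elements and drives many of these genes under oxidative stress. Photoreceptors, with their dense mitochondria and oxidizable lipids, and retinal ganglion cells (RGCs), with long axons, are both known to be sensitive to oxidative stress.

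The saline libraries held 36085737, 46481382 and 37546884 counts and the microbead libraries 19834366, 13574949 and 15647739. The lowest count of a member in any library was the 25 counts of *Nqo1* in microbead replicate 2, with a counting error of 20.0%. For the other members the counting error in the lowest library ran from 1.22% for *Gpx4* to 10.8% for *Hmox1*. Levels are given as counts per 1000000 (CPM) on library sizes scaled by the TMM method. Rhodopsin, the defining transcript of rods, averaged 35299 CPM, and none of the 10 rod markers was at 0. Mitochondrial transcripts made up 3.19%, 3.30% and 3.57% of the counts in saline retina and 10.6%, 8.90% and 9.97% in microbead retina. In the library descriptions of the labels, all saline samples carried one series of names and all microbead samples another. What the series mark is not given in the sources used here, and it cannot be told apart from the injection.

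*Sod2* and *Txn1* fell in microbead retina, and no other member passed the test. Sod2 is the manganese superoxide dismutase of the mitochondrial matrix, and Txn1 is the cytosolic thioredoxin that reduces protein disulfides. Both were lower in each microbead library than in each saline library. *Gclm* was also lower in each microbead library, and *Gpx4* and *Nfe2l2* were higher, without passing the threshold of 0.05 on the adjusted p. Among all tested genes 12.8% passed in either direction, against 2 of the 10 members. In the lower direction 6.31% of all tested genes passed, against 2 members, and in the higher direction 6.46%, against 0 members. At an unadjusted p under 0.05, edgeR counted 5 members, 3 lower and 2 higher, against 31.4% of all tested genes. At this unadjusted threshold DESeq2 and limma-voom each counted 6 members, 3 lower and 3 higher, against 32.1% and 31.6% of all tested genes. At an adjusted p under 0.05 both tools called *Sod2* and *Txn1* alone, against 20.2% of all tested genes with DESeq2 and 12.5% with limma-voom. Groups did not overlap for 18.9% of all tested genes in the lower direction, against 3 members, and for 18.8% in the higher direction, against 2 members. The median log2 fold change was 0.09 over the 10 members and -0.03 over all tested genes, with 5 members above 0 and 5 below. With 10 genes, 1 member more or less moves such a share by 10 percentage points, and the counts are given as a description of the list.

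**Figure D1:**
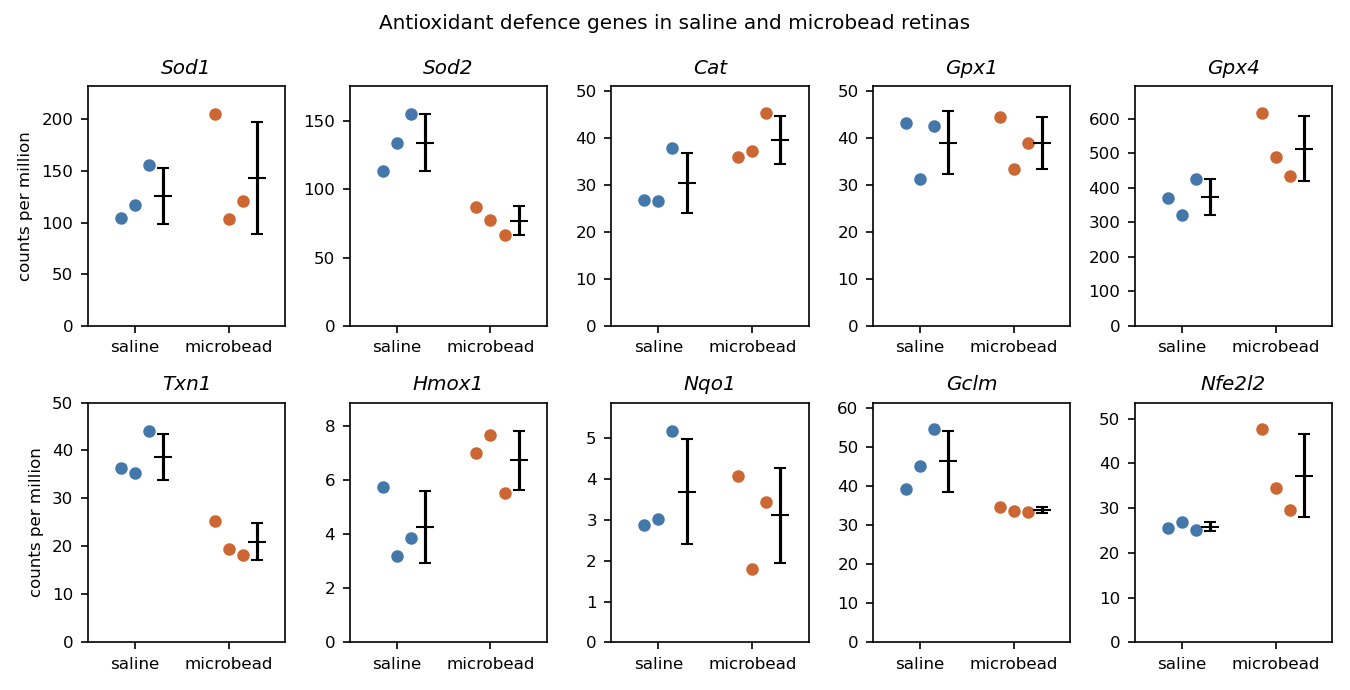
CPM of each of the 10 genes in every library (linear axes from 0), saline in blue and microbead in orange, with the mean and SD of 3 libraries beside the points in black. *Sod2* lay at 114 to 155 CPM in saline retina and at 66.6 to 87.2 CPM in microbead retina, whereas the *Sod1* points of the groups overlapped.

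Of the superoxide dismutases, *Sod2* passed the test and *Sod1* did not. *Sod2* (ENSMUSG00000006818.4, chr17:13006846-13040063, plus strand) was measured at 113.7, 133.9 and 155.4 CPM in saline retina and at 87.2, 77.7 and 66.6 CPM in microbead retina. The highest microbead value was below the lowest saline value. Saline retina averaged 134 ± 20.8 CPM (SD, n = 3) and microbead retina 77.2 ± 10.3 CPM (SD, n = 3). On the log2 scale the difference was -0.80 ± 0.19 (SE, adjusted p = 0.0273 by the quasi-likelihood test of edgeR), a change of -42.5% with a 95% interval from -57.0% to -23.3%. The call was lost without saline replicate 2 or 3 or without any 1 of the microbead replicates, where the adjusted p from edgeR ran up to 0.117, and the log2 fold change stayed between -0.91 and -0.68.

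*Sod1* (ENSMUSG00000022982.9, chr16:90220754-90226329, plus strand) encodes the copper-zinc enzyme of the cytosol. It was measured at 104, 117 and 156 CPM in saline retina and at 205, 104 and 121 CPM in microbead retina. Microbead replicate 1 was the highest library and the other microbead values lay within the saline range or just below it. Saline retina averaged 126 ± 26.8 CPM (SD, n = 3) and microbead retina 143 ± 54.3 CPM (SD, n = 3), with a log2 fold change of 0.19 (SE 0.27, adjusted p = 0.668 by edgeR). Without microbead replicate 1 the sign turned and the log2 fold change was -0.17. The 95% interval, from -25.0% to 73.8%, leaves room for a change in either direction at this spread between libraries.

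Within a library the ratio of *Sod1* to *Sod2* counts does not depend on how libraries are scaled. It was 0.915, 0.875 and 1.00 in saline retina and 2.35, 1.34 and 1.82 in microbead retina. Each microbead retina thus had more *Sod1* than *Sod2* counts, whereas in saline retina the counts were close to equal. The 4 ratios given here were chosen after the values were seen and carry no test.

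The enzymes that remove peroxide did not pass the test. Cat, the peroxisomal catalase, was measured at 26.8, 26.6 and 37.8 CPM in saline retina and at 35.9, 37.1 and 45.3 CPM in microbead retina. *Cat* (ENSMUSG00000027187.10, chr2:103453849-103485160, minus strand) overlapped between groups through saline replicate 3, which was above 2 of the microbead libraries. On the log2 scale the difference was 0.38 ± 0.20 (SE, adjusted p = 0.235 by edgeR).

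*Gpx1* (ENSMUSG00000063856.7, chr9:108338903-108340343, plus strand), the abundant cytosolic glutathione peroxidase, was measured at 43.1, 31.3 and 42.6 CPM in saline retina and at 44.3, 33.3 and 38.8 CPM in microbead retina. The groups covered nearly the same range. Saline retina averaged 39.0 ± 6.66 CPM (SD, n = 3) and microbead retina 38.8 ± 5.51 CPM (SD, n = 3), a log2 difference of -0.01 ± 0.20 (SE, adjusted p = 0.988 by edgeR). Its 95% interval ran from -26.5% to 35.0%, and the sign of so small a value changed with the scaling.

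*Gpx4* (ENSMUSG00000075706.10, chr10:80047166-80056439, plus strand) encodes the peroxidase that reduces lipid hydroperoxides in membranes and restrains ferroptosis. It was measured at 370, 322 and 427 CPM in saline retina and at 617, 488 and 433.5 CPM in microbead retina. The groups did not overlap, but saline replicate 3 and microbead replicate 3 differed by little. Saline retina averaged 373 ± 52.9 CPM (SD, n = 3) and microbead retina 513 ± 94.3 CPM (SD, n = 3), with a log2 fold change of 0.46 (SE 0.20, adjusted p = 0.146 by edgeR). The ratio of *Gpx4* to *Gpx1* counts was 8.59, 10.3 and 10.03 in saline retina and 13.9, 14.7 and 11.2 in microbead retina, again without overlap.

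Reads of *Gpx4* could be shared with a copy. Of the 31-base stretches of its principal transcript, 74.1% also occur in transcripts of another locus, as do 55.5% of the 100-base stretches. The copy with the largest overlap was the transcribed processed pseudogene *Gpx4-ps2*, listed in the table under another symbol. It held 431, 387 and 469 counts in saline retina and 617, 293 and 298 counts in microbead retina, or 11.4, 8.03 and 13.4 CPM against 31.8, 21.2 and 19.4 CPM. The pseudogene was thus higher in each microbead library, and the level of *Gpx4* is uncertain by whatever reads were assigned between them. The treatment of multi-mapping reads is not given in the sources used here.

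*Txn1* (ENSMUSG00000028367.5, chr4:57943373-57956411, minus strand) was measured at 36.4, 35.3 and 44.1 CPM in saline retina and at 25.4, 19.4 and 18.2 CPM in microbead retina. Each microbead value was below each saline value, and the distance between the nearest libraries was larger than the spread within microbead retina. Saline retina averaged 38.6 ± 4.80 CPM (SD, n = 3) and microbead retina 21.0 ± 3.84 CPM (SD, n = 3). On the log2 scale the difference was -0.88 ± 0.20 (SE, adjusted p = 0.0249 by the quasi-likelihood test of edgeR), a change of -45.5% with a 95% interval from -59.9% to -26.1%. The call was lost without saline replicate 2 or 3 or without microbead replicate 2 or 3, with an adjusted p from edgeR of up to 0.109, and the log2 fold change stayed between -1.04 and -0.77.

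*Txn2*, which encodes the mitochondrial thioredoxin, was measured at 118, 109 and 125 CPM in saline retina and at 186, 134 and 146 CPM in microbead retina. It was higher in each microbead library, with a log2 fold change of 0.40 that did not pass (SE 0.18, adjusted p = 0.155 by edgeR). The ratio of *Txn2* to *Txn1* counts was 3.24, 3.09 and 2.83 in saline retina and 7.32, 6.92 and 8.01 in microbead retina. The mean ratio was 2.43 times as high in microbead retina, with no overlap. The processed pseudogene *Txn-ps1* held at most 1 count in any library.

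**Figure D2:**
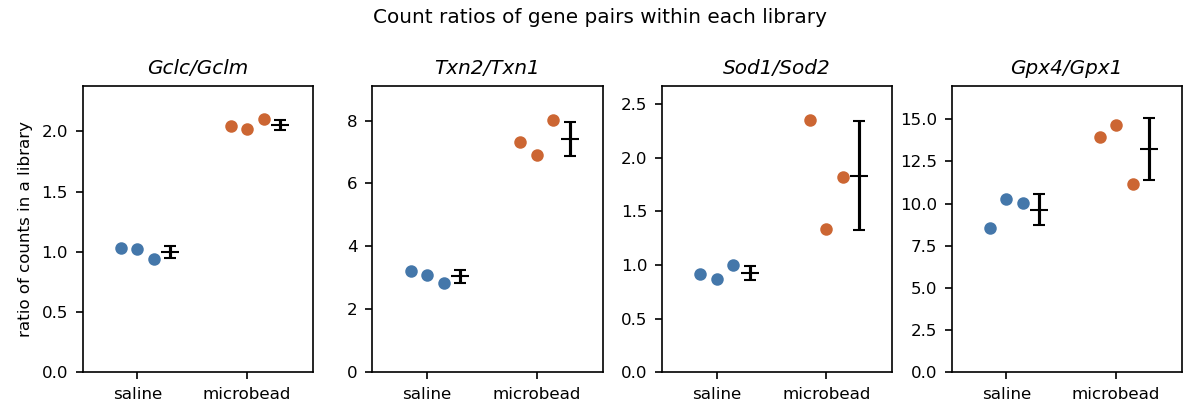
Ratio of the counts of gene pairs within each library (linear axes from 0), saline in blue and microbead in orange, with mean and SD of 3 libraries in black. The *Gclc* to *Gclm* ratio lay at 0.944 to 1.03 in saline retina and at 2.02 to 2.10 in microbead retina.

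Glutathione is made by glutamate-cysteine ligase, whose modifier subunit is encoded by *Gclm* and whose catalytic subunit is encoded by *Gclc*. *Gclm* (ENSMUSG00000028124.15, chr3:122245557-122270732, plus strand) was measured at 39.2, 45.2 and 54.8 CPM in saline retina and at 34.7, 33.6 and 33.3 CPM in microbead retina. The microbead libraries lay close together and all below the saline libraries. Saline retina averaged 46.4 ± 7.87 CPM (SD, n = 3) and microbead retina 33.9 ± 0.738 CPM (SD, n = 3), with a log2 fold change of -0.45 (SE 0.18, adjusted p = 0.118 by edgeR).

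*Gclc* was measured at 40.5, 46.3 and 51.7 CPM in saline retina and at 70.8, 67.9 and 70.0 CPM in microbead retina. It rose, with a log2 fold change of 0.59 (SE 0.16, adjusted p = 0.0452 by edgeR), and the groups did not overlap. The call was lost without the filter on low counts and without each library other than saline replicate 3, where the adjusted p from edgeR ran up to 0.164. The log2 fold change was 0.54 without the filter and 0.50 to 0.68 with a library left out. The ratio of *Gclc* to *Gclm* counts was 1.03, 1.02 and 0.944 in saline retina and 2.04, 2.02 and 2.10 in microbead retina. In saline retina the subunits had about equal counts, and in microbead retina the catalytic subunit had 2.05 times the counts of the modifier subunit on average.

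Some exon bases of *Gclm* are shared with other annotated genes. An antisense transcript, *Gm17494*, covers 296 of its exon bases and a pseudogene on the same strand, *Gm6061*, covers 244. *Gm17494* was measured at 4.83, 3.40 and 2.20 CPM in saline retina and at 12.04, 8.38 and 8.64 CPM in microbead retina. It was below *Gclm* in each library, and nearer to it in microbead retina, where *Gclm* was at 34.7, 33.6 and 33.3 CPM. Whether the strand was used in counting is not given in the sources used here, so reads over the shared bases are uncertain. Of the 31-base stretches of *Gclm*, 3.56% also occur in transcripts of *Ppia*, as do 2.44% of its 100-base stretches. *Ppia* was measured at 299.8, 389 and 486 CPM in saline retina and at 543, 375 and 343 CPM in microbead retina, well above *Gclm* and with overlap between the groups. In the principal transcript of *Gclm* 0% of the stretches of either length were shared.

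*Nfe2l2* (ENSMUSG00000015839.6, chr2:75675513-75704641, minus strand), the gene of NRF2, was measured at 25.5, 27.0 and 25.0 CPM in saline retina and at 47.6, 34.4 and 29.7 CPM in microbead retina. The saline libraries agreed closely, with a coefficient of variation of 4.02%, and the microbead libraries were all higher and spread more, at 24.9%. Saline retina averaged 25.8 ± 1.04 CPM (SD, n = 3) and microbead retina 37.2 ± 9.28 CPM (SD, n = 3), with a log2 fold change of 0.53 (SE 0.20, adjusted p = 0.113 by edgeR). The level of its transcript says nothing of the amount or activity of the protein, which were not measured.

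The NRF2 targets of low level, *Hmox1* and *Nqo1*, did not pass the test. *Hmox1* (ENSMUSG00000005413.8, chr8:75093621-75100589, plus strand), the inducible heme oxygenase, was measured at 5.74, 3.19 and 3.85 CPM in saline retina and at 6.999, 7.65 and 5.52 CPM in microbead retina. Saline replicate 1 was above microbead replicate 3, so the groups overlapped. On the log2 scale the difference was 0.66 ± 0.32 (SE, adjusted p = 0.186 by edgeR), with a 95% interval from -3.25% to 158%.

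*Nqo1* (ENSMUSG00000003849.8, chr8:107388225-107403206, minus strand), which encodes a quinone reductase, was measured at 2.87, 3.03 and 5.16 CPM in saline retina and at 4.07, 1.81 and 3.44 CPM in microbead retina. The groups overlapped widely. On the log2 scale the difference was -0.24 ± 0.41 (SE, adjusted p = 0.727 by edgeR) with a 95% interval from -55.0% to 59.5%. The coefficient of variation between libraries was 34.8% in saline and 37.6% in microbead retina, above the counting error of 20.0% in its lowest library. Its sign turned without saline replicate 3 and without microbead replicate 2.

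Levels can be compared between genes only per length, and CPM per kilobase of the union of annotated exons was used for this. *Gpx4* had the highest level, with a mean of 257 over the 6 libraries and a range from 187 to 358. *Sod1*, *Txn1* and *Gpx1* followed with mean levels of 33.9, 28.4 and 27.0 CPM per kilobase. Their ranges over the 6 libraries overlapped, and the order of *Txn1* against *Sod1* and against *Gpx1* differed by group. In each saline library the level of *Txn1* was above that of *Sod1*, at 34.6, 33.6 and 42.0 against 26.2, 29.5 and 39.2 CPM per kilobase. In each microbead library it was below, at 24.1, 18.5 and 17.3 against 51.7, 26.1 and 30.5. Per kilobase of principal transcript the lowest value of *Sod1*, 162, was above the highest of *Txn1*, 42.0, so this order depends on the length used. On the exon union *Txn1* was also above *Gpx1* in each saline library, where *Gpx1* was at 29.9, 21.7 and 29.5. In each microbead library *Txn1* was below *Gpx1*, which was at 30.8, 23.1 and 26.9. Per kilobase of principal transcript *Gpx1* was at 40.2, 29.2 and 39.7 in saline retina, so that order depends on the length too.

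*Cat*, *Sod2*, *Nfe2l2* and *Gclm* came next with mean levels of 13.4, 10.6, 8.31 and 6.38 CPM per kilobase, and each overlapped its neighbour in this order. By group, *Sod2* averaged 13.4 CPM per kilobase in saline retina, above *Cat* at 11.6, and 7.71 in microbead retina, below *Cat* at 15.1 and *Nfe2l2* at 9.81. *Hmox1* and *Nqo1* were lowest, with mean levels of 3.14 and 2.19 CPM per kilobase and overlapping ranges. The highest value of *Hmox1*, 4.37, was below the lowest value of *Gclm*, 5.29. Lengths matter to the order, since the exon union of *Sod2* spans 10008 bases and its principal transcript 5861, and that of *Gclm* 6291 and 1002. Per kilobase of principal transcript *Gclm* had a mean level of 40.0, below *Gpx4* at 462 and *Sod1* at 210.

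The summed level of the 10 members, dominated by *Gpx4*, was 767, 744 and 951 CPM in saline retina and 1109, 837 and 795 CPM in microbead retina. The groups overlapped, so the sum did not separate them. For each member the gene with the most similar profile was sought among 135 others, the remaining members and the tested genes of the groups described below. Likeness was the smallest root mean square difference in centred log2 CPM over the 6 libraries. *Txn1* was most like *Sod2* (0.109), and *Sod2* was most like *Me1* (0.088), the cytosolic malic enzyme that supplies NADPH. *Gpx4* was most like *Txn2* (0.109), *Gclm* most like *Srxn1* (0.090), *Nfe2l2* most like *Pstk* (0.048) and *Sod1* most like *Fth1* (0.084). *Gpx1* was nearest to *Msrb1* (0.065), *Cat* to *Eefsec* (0.161), *Nqo1* to *Txnrd3* (0.177) and *Hmox1* to *Idh2* (0.221), the last with the poorest match. These likenesses describe 6 libraries that include the group difference, and carry no test.

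Beyond the members, 148 further genes were listed in 12 groups, of which 141 were in the table and 126 were tested. The groups hold antioxidant enzymes but also NRF2 regulators, iron handling, lipid peroxidation and oxidant sources. Counts over all 12 groups therefore do not describe defence alone. Of the 126 tested genes 3 rose and 7 fell, so that 10 of 126 passed, against 12.8% of all tested genes. Their median log2 fold change was -0.13, against -0.03 over all tested genes. Within glutathione metabolism the genes that rose were *Gclc*, the transferase *Gsta3* and *Gstz1*, which encodes maleylacetoacetate isomerase. *Gsta3* was measured at 1.35, 1.08 and 0.599 CPM in saline retina and at 5.40, 4.62 and 5.59 CPM in microbead retina. Its groups were far apart, with a log2 fold change of 2.36 (SE 0.39, adjusted p = 0.0141 by edgeR). *Gstz1* had a log2 fold change of 0.79 (SE 0.18, adjusted p = 0.0268 by edgeR). The 16 tested transferases had a median log2 fold change of 0.27. Of them 2 rose, where 6.46% of all tested genes did, and the other 14 did not pass.

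*Oplah*, whose enzyme returns 5-oxoproline to glutamate in the glutathione cycle, fell. It was measured at 45.9, 40.9 and 49.1 CPM in saline retina and at 23.0, 22.1 and 25.4 CPM in microbead retina. The groups were clearly separate, with a log2 fold change of -0.95 (SE 0.17, adjusted p = 0.0149 by edgeR).

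In NADPH supply 1 of 9 tested genes fell, where 6.31% of all tested genes did. It was *Me1*, with a log2 fold change of -0.70 (SE 0.18, adjusted p = 0.0362 by edgeR). The pentose phosphate enzyme gene *Tkt* had a log2 fold change of -0.30 and did not pass. The group of the thioredoxin and glutaredoxin system was listed together with sestrins and methionine sulfoxide reductases. Of its 16 tested genes 1 fell, where 6.31% of all tested genes did. This gene was the sestrin *Sesn3*, at -0.88 (SE 0.23, adjusted p = 0.0392 by edgeR). No thioredoxin, thioredoxin reductase or glutaredoxin gene of the group passed. The median log2 fold change of the group was -0.30. Below 0 were 12 of its 16 genes, against 9221 of all 17707 tested genes.

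Among the 8 superoxide and peroxide enzymes outside the members, none passed. Log2 fold changes were below 0 for 6 of them, against 9221 of all 17707 tested genes. *Prdx6* was measured at 194, 140 and 211 CPM in saline retina and at 126, 114 and 71.7 CPM in microbead retina. The libraries did not overlap, and the log2 fold change of -0.81 (standard error 0.25) had an adjusted p of 0.0589 from edgeR. DESeq2 and edgeR without the filter on low counts called it, with adjusted p of 0.0169 and 0.00393, while limma-voom (adjusted p = 0.0591) and each edgeR fit with a library left out (adjusted p of 0.0740 to 0.176) did not. *Prdx2* had a log2 fold change of -0.50 and its groups overlapped. Of the 3 tested glutathione peroxidases, all without a call, *Gpx3* had a log2 fold change of 0.84 and *Gpx8* of 0.41.

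In the iron and heme group 2 of 14 tested genes fell, where 6.31% of all tested genes did. The group was evenly split, with 7 genes above 0, 7 below and a median log2 fold change of -0.09. *Tfrc*, the transferrin receptor, was measured at 121, 144 and 216 CPM in saline retina and at 81.5, 81.2 and 81.3 CPM in microbead retina. The microbead libraries were nearly identical and all were below the saline libraries. On the log2 scale the difference was -0.98 ± 0.22 (SE, adjusted p = 0.0254 by edgeR). *Ftl1*, the ferritin light chain, had a log2 fold change of -0.78 (SE 0.18, adjusted p = 0.0276 by edgeR).

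*Dpp3*, whose protein binds KEAP1, was the 1 gene of 14 tested NRF2 regulators and partners that passed, where 6.31% of all tested genes fell. It had a log2 fold change of -0.77 (SE 0.19, adjusted p = 0.0325 by edgeR). The group's median was -0.30. Of its 14 genes 11 were below 0, against 9221 of all 17707 tested genes. The abundant gene of the group, *Cul3*, had a log2 fold change of -0.23. None of the 10 other tested NRF2 targets passed, and *Cbr1* and *Abcc1* had log2 fold changes of 0.17 and -0.32. *Sephs2*, which makes selenophosphate for selenoproteins, fell by 0.83 on the log2 scale (SE 0.23, adjusted p = 0.0429 by edgeR). It was the 1 gene of 11 tested in selenoprotein synthesis that passed, where 6.31% of all tested genes fell. *Secisbp2l*, the abundant gene of that group, had a log2 fold change of -0.34. No gene passed among 6 tested genes of lipid peroxidation, where the median was 0.33, with *Acsl4* at -0.47 and *Dhodh* at 0.23. Above 0 were 5 of the 6, against 8486 of all 17707 tested genes. None passed among 8 genes of oxidant sources either, with a median of -0.50, *Cyba* at -0.57 and *Ncf1* at -0.75. Below 0 were 6 of the 8, against 9221 of all 17707 tested genes. Each of these 6 was highest in saline replicate 1, which also had the most microglia and macrophage markers. In that library *Ncf1* was at 6.75 CPM, against 1.74 and 1.57 in the other saline libraries, and *Cyba* at 10.5, against 4.77 and 6.31. With 1 library left out *Ncf1* ran from -1.08 to 0.26. All 10 calls among these further genes were lost without saline replicate 2 (adjusted p of up to 0.164 from edgeR) and without microbead replicate 3 (up to 0.156), and each was kept in 1 to 4 of the 6 fits that left a library out. Their log2 fold changes kept direction in these fits, running for example from -1.02 to -0.89 for *Oplah*, from 2.09 to 2.61 for *Gsta3* and from -1.15 to -0.71 for *Tfrc*.

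**Figure D3:**
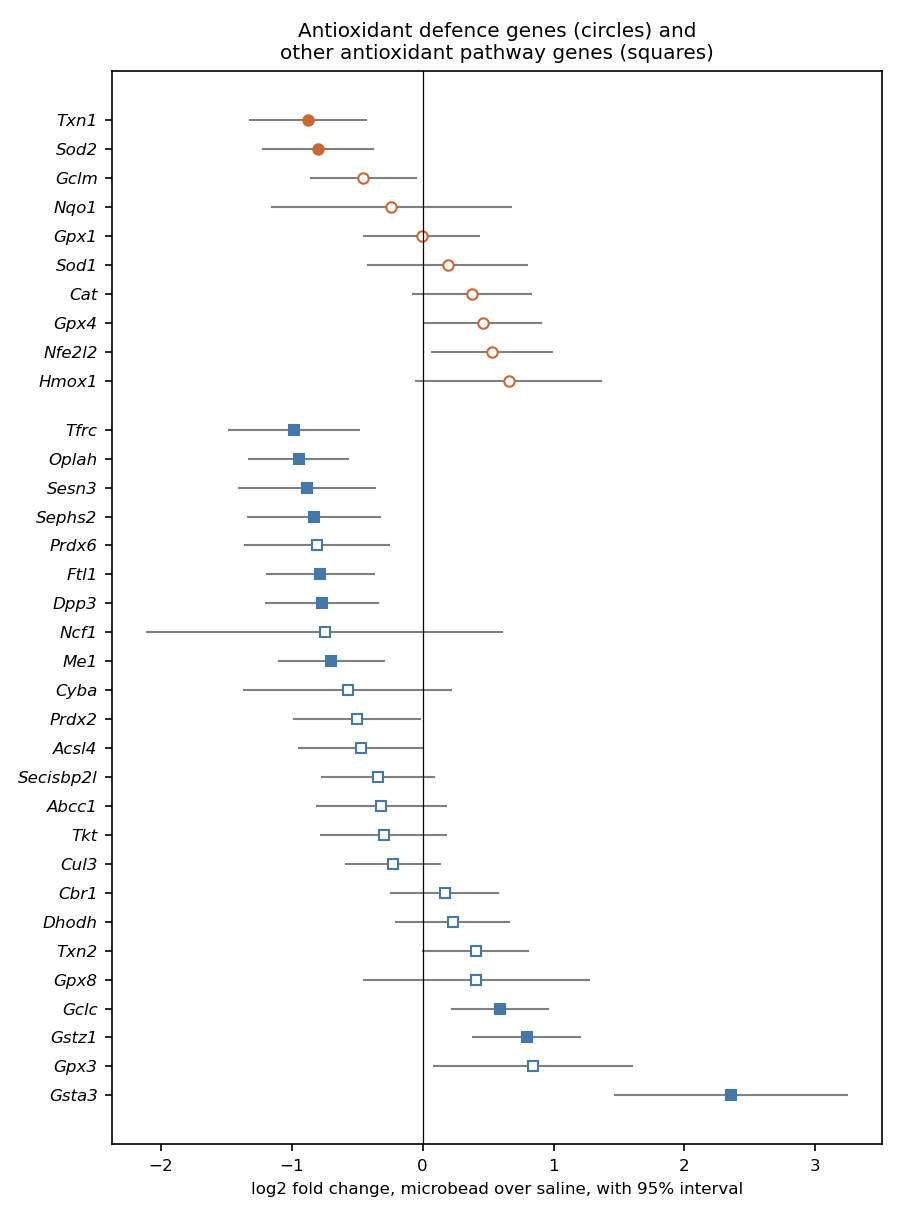
Log2 fold change of microbead over saline retina for the 10 members (circles) and 24 named genes of the pathway (squares), with 95% intervals from edgeR's fit and filled symbols for an adjusted p under 0.05. *Txn1* at -0.88 and *Sod2* at -0.80 are the filled circles, and *Gsta3* at 2.36 lies farthest to the right.

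Cell type markers moved with the groups in part. The summed level of 10 Müller glia markers was 6299, 6225 and 9409 CPM in saline retina and 5709, 5741 and 4720 CPM in microbead retina, without overlap (p = 0.1 in a two-sided exact permutation of libraries, the lowest value 3 against 3 can reach). Of these markers 4 of 10 fell, where 6.31% of all tested genes did, namely *Sox9*, *Vim*, *Dkk3* and *Crym*. The other 6 did not pass, with log2 fold changes from -0.46 for *Aqp4* to -0.12 for *Slc1a3*. Among these 6 were *Rlbp1* at -0.16 and the most abundant marker, *Glul*, at -0.31, and the groups overlapped for both. The 10 endothelial markers summed to 503, 499 and 687 CPM in saline retina and 316, 447 and 293 CPM in microbead retina (exact permutation p = 0.1). *Kdr* and *Flt1* averaged 242 and 116 CPM over the 6 libraries and made up most of this sum. Of the 10 markers 5 fell, against the same 6.31%, among them *Flt1*. The most abundant, *Kdr*, overlapped between groups and did not pass. *Emcn* had a log2 fold change of 0.81 (adjusted p = 0.173 from edgeR), the 1 endothelial marker above 0. The summed Müller glia and endothelium markers were lower in the same libraries as *Sod2* and *Txn1*, as was the lens sum given below. Among all tested genes 18.9% were lower in microbead retina without overlap. The part of these cell types in the fall of *Sod2* and *Txn1* was not tested.

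Rod markers summed to 71289 ± 11622 CPM (SD, n = 3) in saline retina and 66985 ± 7169 CPM (SD, n = 3) in microbead retina, with overlap (exact permutation p = 0.7). Of the 10 rod markers 1 rose, *Pdc*, at 1.01 on the log2 scale (adjusted p = 0.0362 from edgeR), and 1 fell, *Nrl*, at -0.97 (adjusted p = 0.0192 from edgeR), where 6.46% and 6.31% of all tested genes rose and fell. RGC markers summed to 370, 1067 and 1369 CPM in saline retina and 1239, 904 and 1141 CPM in microbead retina (exact permutation p = 0.8). Saline replicate 1 stood apart by its low RGC level and by 253 CPM of microglia and macrophage markers, against 69.9 and 101 CPM in the other saline libraries. Without this library *Sod2* had a log2 fold change of -0.91 (adjusted p = 0.0199 from edgeR) and *Txn1* of -0.92 (adjusted p = 0.0255 from edgeR). The lens markers in the table, 7 of 8 listed, summed to 24.4, 3.01 and 264 CPM in saline retina and to 2.21, 2.60 and 2.99 CPM in microbead retina (exact permutation p = 0.1). *Cryaa* was the most abundant, with 0 counts in microbead replicates 1 and 3, and the high value was that of saline replicate 3. Without saline replicate 3 the log2 fold changes of *Sod2* and *Txn1* were -0.68 and -0.77, with adjusted p of 0.0589 and 0.0537 from edgeR. The summed markers of astrocytes, microglia and macrophages, red blood cells and pigment epithelium overlapped between groups, with exact permutation p of 0.4, 0.8, 0.8 and 0.7. Of the 6 astrocyte markers 1 fell, against 6.31% of all tested genes, *Aldh1l1*, at -1.23 on the log2 scale (adjusted p = 0.0307 from edgeR). None of the 12 tested microglia and macrophage markers passed in edgeR, and the groups did not overlap for 2 of them, both lower, where 18.9% of all tested genes were lower without overlap.

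*Sod2* shares sequence with other annotated transcripts over part of its long exon union. The largest share, 22.0% of its 31-base and 9.78% of its 100-base stretches, occurs in an annotated lincRNA. This lincRNA is not among the genes of the count table, so no counts of it were available. Of the 31-base stretches 20.1% also occur in transcripts of *Rps6ka2*, measured at 168, 171 and 188 CPM in saline retina and at 77.7, 114 and 120 CPM in microbead retina. *Rps6ka2*, named here after its values were seen, was lower in each microbead library too. In the principal transcript of *Sod2*, 3.88% of the 31-base stretches and 0% of the 100-base stretches were shared. For *Txn1* 6.95% of 31-base stretches and 0% of 100-base stretches were shared, and for *Cat*, *Gpx1*, *Hmox1*, *Nqo1* and *Nfe2l2* none were. *Sod1* shared 35.4% of the 31-base stretches of its principal transcript, mainly with the pseudogene *Gm8566*, which held at most 30 counts in any library.

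Promoter sequences of RefSeq (GRCm38.p6), from 250 bases before to 50 bases after the start of transcription, were matched for 9 of the 10 members by symbol, and *Hmox1* was not matched. *Gpx4* had 4 windows and counts as 1 member. The promoters of *Sod2* and *Txn1*, the members that fell, are shown 5′ to 3′ on the gene's strand with the GC box GGGCGG, in either orientation, in capitals. That of *Sod2* lies at chr17:13007589-13007888 on the plus strand and that of *Txn1* at chr4:57956362-57956661 on the minus strand.
Sod2: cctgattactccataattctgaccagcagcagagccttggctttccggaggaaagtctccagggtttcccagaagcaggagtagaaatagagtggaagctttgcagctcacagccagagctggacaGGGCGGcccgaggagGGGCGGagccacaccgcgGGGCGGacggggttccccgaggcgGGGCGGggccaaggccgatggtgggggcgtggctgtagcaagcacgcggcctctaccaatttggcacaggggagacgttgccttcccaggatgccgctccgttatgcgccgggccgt
Txn1: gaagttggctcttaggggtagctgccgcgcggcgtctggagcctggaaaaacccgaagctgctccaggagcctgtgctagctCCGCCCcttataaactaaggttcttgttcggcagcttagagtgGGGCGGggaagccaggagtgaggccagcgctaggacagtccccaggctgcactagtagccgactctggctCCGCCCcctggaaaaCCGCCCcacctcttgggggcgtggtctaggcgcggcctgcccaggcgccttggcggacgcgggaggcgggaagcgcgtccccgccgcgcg
Each holds 4 GC boxes, and their base composition was alike, with 64.3% and 67.3% of G and C. A GC box was found for all 9 matched members and in 35.7% of all 32851 promoters of the same length. Here and for the motifs below, a member counts if any of its windows holds the letters. The share of all promoters is per window, so the shares are not strictly alike. The base composition of all promoters was not compared. These matches are letters in a window and describe no binding.

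The core of the antioxidant response element, TGACNNNGC on either strand, was found for 3 of the 9 matched members and in 12.4% of all promoters. It is shown in capitals with its flanks, on the strand that carries it, for *Sod1* at chr16:90220696-90220724, *Gclm* at chr3:122245413-122245441 and *Nfe2l2* at chr2:75704885-75704913, each on the minus strand of the genome.
Sod1: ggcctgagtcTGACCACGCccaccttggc
Gclm: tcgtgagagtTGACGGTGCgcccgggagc
Nfe2l2: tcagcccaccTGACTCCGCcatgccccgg
These 3 genes had log2 fold changes of 0.19, -0.45 and 0.53, and none passed the test. The AP-1 letters TGANTCA (7.81% of all promoters) and the E-box CACGTG (7.15%) were in the window of 0 matched members. A loose NF-kB pattern, GGG followed by any 5 bases and CC, which can overlap a GC box, were found for 7 members and in 50.8% of all promoters.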

How the data were processed

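Poly(A) RNA of 3 saline and 3 microbead retina samples was sequenced in stranded libraries. Per the submitters' processing notes, the authors aligned reads with STAR 2.5.3a to GRCm38.p5 and counted them per gene with featureCounts 1.15.2, and they deposited raw counts. The 6 numeric columns of the authors' own DESeq2 comparison were not used. Counts were filtered with filterByExpr (minimum 10, total 15), scaled by TMM and compared with edgeR 4.0.16 (R 4.3.3, quasi-likelihood test, two-sided, Benjamini-Hochberg over all tested genes, threshold 0.05). Intervals are 95%. Summed marker levels were compared with an exact permutation test. The steps were tested on simulated data. Lengths, positions and shared stretches came from GENCODE vM21. Shared stretches were searched for the members only, so copies of the other named genes were not checked. At the smallest and largest library, 3 counts correspond to 0.217 and 0.0622 CPM, for counting error only. Between libraries of a group, chi-square per degree of freedom was at least 20.1, so none was a copy.

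Members and lists were chosen with earlier results of these data known. From each of 12 pathway lists, up to 2 called genes with the largest change, a mean of at least 1 CPM and groups without overlap were named, filled up by the most abundant. Ratios, the 5 promoter motifs, *Rps6ka2*, other copies and single markers were chosen after their values were seen. Other settings tried were scaling by RLE or upper quartile, leaving mitochondrial genes out of library sizes, other filters, DESeq2 1.42.0, limma-voom 3.58.1, a replicate block, a threshold of 0.01 and each library left out. The labels do not say that samples came from separate mice, so p-values measure the spread between these samples.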

Additional observations from a re-analysis of the deposited data

How the results depend on the processing

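The 2 members called, *Sod2* and *Txn1*, were the members called by edgeR with RLE or upper-quartile scaling, without mitochondrial genes in the library sizes, without the filter or with at least 10 counts in every library, and by DESeq2 and limma-voom. Their log2 fold changes then ran from -0.85 to -0.75 and from -0.93 to -0.83. Over all genes 2261 were called, against 3720 without the filter (1511 higher and 2209 lower), 3582 by DESeq2, 905 with the replicate block, and 87 at an adjusted p under 0.01. At that threshold 0 members passed in edgeR, with 5 at an unadjusted p under 0.05. With the replicate block 0 members passed, with 4 at an unadjusted p under 0.05 in edgeR, and 2 were called by DESeq2 and by limma-voom without the block. The block also ended the calls of *Gclc*, *Me1*, *Sesn3*, *Tfrc*, *Gstz1* and *Sephs2*, with adjusted p of 0.0529 to 0.0784 from edgeR. Samples with the same number did not deviate together (correlation across genes -0.02, 0.17 and 0.01), and not every sample correlated best with its own number, so the samples share only a number. Leaving out each library in turn gave 46 to 2621 genes and 0 to 2 members. The lowest count of genes came without microbead replicate 3 and the highest without saline replicate 1. Signs turned for *Gpx1* with RLE scaling (0.0154), upper-quartile scaling (0.0376), no mitochondrial genes in the library sizes (0.0155), at least 10 counts in every library (0.00524), DESeq2 (0.0157) and limma-voom (0.00953). Without 1 library, log2 fold changes ran from -0.15 to 0.11 for *Gpx1*, from -0.17 to 0.39 for *Sod1*, from -0.49 to 0.0802 for *Nqo1*, from -0.16 to 0.68 for *Gpx8* and from -1.08 to 0.26 for *Ncf1*. The cause of these turns was not tested. Over the 10 members and 14 settings, 117 of the values kept direction and side of the threshold, 11 lost the call and 12 turned sign. For the 24 other named genes the counts were 285, 45 lost, 4 gained and 2 turned. Counting error in the lowest library was 20.0% for *Nqo1* (25 counts), 23.6% for *Ncf1* (18 counts) and 21.8% for *Gsta3* (21 counts). The lens sum had a log2 ratio of -5.22, and of -2.40 without saline replicate 3.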
